A study of Homo sapiens with 4 samples.

Results

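The genes described here encode transcription factors of the JUN, FOS, ATF and MAF families: JUN, JUNB and JUND, FOS, FOSB and FOSL2, ATF2, ATF3 and BATF3, and MAF. They are 10 genes, beside 14884 that the platform annotation names in all, and they have 12 of the 53617 probe sets on the array. FOS and FOSB have 2 probe sets each and the other 8 genes have 1. The platform annotation names the probe sets of 9 genes, and that of BATF3 is named only by the authors' results table, of which the 1999 rows of lowest p were held. Its name thus rests on a low p. The genes were listed with results of these arrays known, and the fall of JUN had been selected by the study on the same arrays. The paper also measured selected genes, JUN among them, by quantitative PCR on other sets of RNA. It reports that the array changes held there, and those values were not used here.

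The study hybridised RNA from the Baz2B-KO cell line and from its parental Hap1 control to GeneChip Human Gene 2.0 ST arrays, with 2 arrays of each line. Hap1 cells are human and near-haploid, and they descend from the chronic myelogenous leukaemia line KBM-7. Baz2B-KO is a Hap1 line in which CRISPR-Cas9 left a short deletion in a coding exon of BAZ2B, the gene of a non-catalytic subunit of an ISWI chromatin remodelling complex. Both lines were grown separately in IMDM with fetal calf serum and were trypsinised, and neither received another treatment. The comparison is between 1 edited and 1 parental line, so the loss of Baz2B and any other difference between them cannot be told apart. Whether arrays of the same line stand for independent cultures is not stated, so the p-values capture only array-to-array spread, which may be technical. No probe set is named for BAZ2B in either table (0 found), and the edited gene was not analysed here. The array medians lay between 3.53 and 3.55 on the log2 scale, and the median absolute difference over the tested probe sets was 0.148 between the controls and 0.115 between the Baz2B-KO arrays. Of 13 blood lineage markers 7 were named, and KIT, GATA1 and SPI1 passed the intensity limit, which required a log2 intensity above 3.5 in at least 2 arrays. The 4 named epithelial markers (EPCAM, KRT8, KRT18 and KRT19) passed it, while 0 of 2 named fibroblast and 0 of 3 named endothelial markers did. Of these 7 tested markers 0 passed the limma test described below (2 at an unadjusted p under 0.05, KIT lower and SPI1 higher in Baz2B-KO). At that unadjusted p, 4.47% of all tested probe sets were lower and 5.38% higher.

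JUN and FOS proteins pair through a leucine zipper, and the pair, known as AP-1, grips DNA with the basic region next to the zipper. JUN proteins can pair with each other or with FOS and ATF proteins, whereas FOS proteins need a partner. FOS-type pairs favour the TPA response element and ATF-type pairs the closely related cAMP response element. Many of these genes are immediate early genes, whose transcripts rise within minutes of serum, growth factors or stress and decay quickly. JUN is also known to bind and activate its own promoter.

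The sequences before the starts of the members are shown because the AP-1 factors act on genes of their own family. RefSeq starts in GRCh38.p14 were available for 8 of the 10 genes, with 9 starts in all because ATF3 has 2. The 250 bases before each start were searched on both strands for TGANTCA (the TPA response element type), TGACNTCA (the cAMP response element type), the core motif TGACGT and the CArG box. TGACNTCA was found before JUN, JUND, MAF and the upstream start of ATF3, against 6.87% of 35114 promoters of the same length. JUN and ATF3 carry it as TGACATCA and JUND and MAF as TGACGTCA, which also holds the core motif in both orientations. FOS, FOSB and FOSL2 carry only the core motif, which was found in 7.1% of all promoters, and JUND has a further copy of it. None of the 9 windows held TGANTCA (6.57% of all promoters) or a CArG box (1.16%). The windows of JUNB and of the downstream start of ATF3 held none of the motifs. Bases farther from the starts were not searched, so elements there would be missed. A match is a description of these letters and not a binding site. Capitals mark the TGACNTCA match or, where there is none, the core motif. JUN is given with all 250 bases (chr1:58784048-58784297, minus strand), and the others with the bases around the match: JUND (chr19:18281799-18281838, minus), MAF (chr16:79600759-79600798, minus), ATF3 (chr1:212565268-212565307, plus), FOS (chr14:75278748-75278785, plus), FOSB (chr19:45467920-45467957, plus) and FOSL2 (chr2:28392776-28392813, plus).
JUN: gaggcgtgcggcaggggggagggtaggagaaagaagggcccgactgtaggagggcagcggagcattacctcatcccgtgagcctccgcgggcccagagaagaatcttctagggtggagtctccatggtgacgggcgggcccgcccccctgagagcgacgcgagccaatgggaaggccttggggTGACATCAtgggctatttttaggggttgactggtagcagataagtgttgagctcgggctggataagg
JUND: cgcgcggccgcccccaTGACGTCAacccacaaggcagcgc
MAF: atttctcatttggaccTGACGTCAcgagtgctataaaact
ATF3: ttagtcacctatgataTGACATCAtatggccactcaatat
FOS: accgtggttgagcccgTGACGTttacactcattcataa
FOSB: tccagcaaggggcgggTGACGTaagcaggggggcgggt
FOSL2: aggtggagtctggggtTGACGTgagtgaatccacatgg

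**Figure D1:**
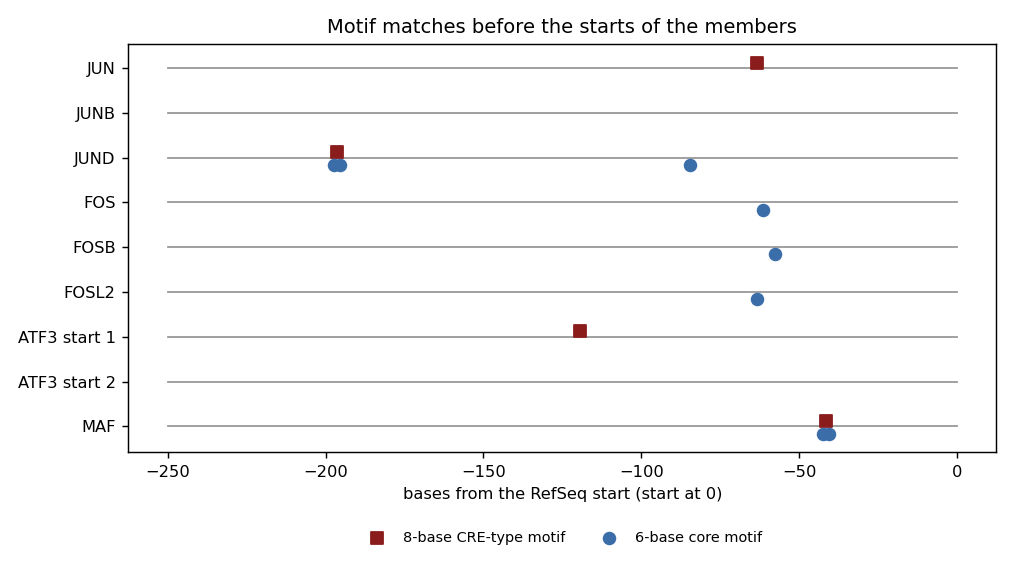
Position of the TGACNTCA motif (red squares) and of the core motif TGACGT (blue circles) in the 250 bases before each RefSeq start, with the distance from the start on the x axis in bases and 1 line per start. The match of JUN lies 67 to 60 bases before its start, that of MAF 45 to 38 bases and that of JUND 200 to 193 bases.

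To ask which of these factors changed with the loss of Baz2B, each probe set was compared between the lines in a limma fit over 11235 named and retained probe sets, with Benjamini-Hochberg adjustment. All 12 member probe sets met the intensity limit. JUN was lower in Baz2B-KO, and the other 11 probe sets, those of 9 genes, did not pass the test at an adjusted p of 0.05. Over all tested probe sets 0.392% were called lower, 0.276% higher and 0.668% in either direction. By the brighter probe set of each gene, both Baz2B-KO arrays lay below both controls for 7 of 10 genes, where 15.9% of the tested probe sets had that pattern, and above both controls for 1 gene, where 21.9% had it. The median log2 fold change of the 10 genes was -0.26, beside 0.017 over all tested probe sets. BATF3, whose name rests on a low p, is among the 7 genes and counts in the median. The shares over all tested probe sets include no probe set named in that way. As the genes were also listed with earlier results known, neither the count nor the median is independent evidence for the family.

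**Figure D2:**
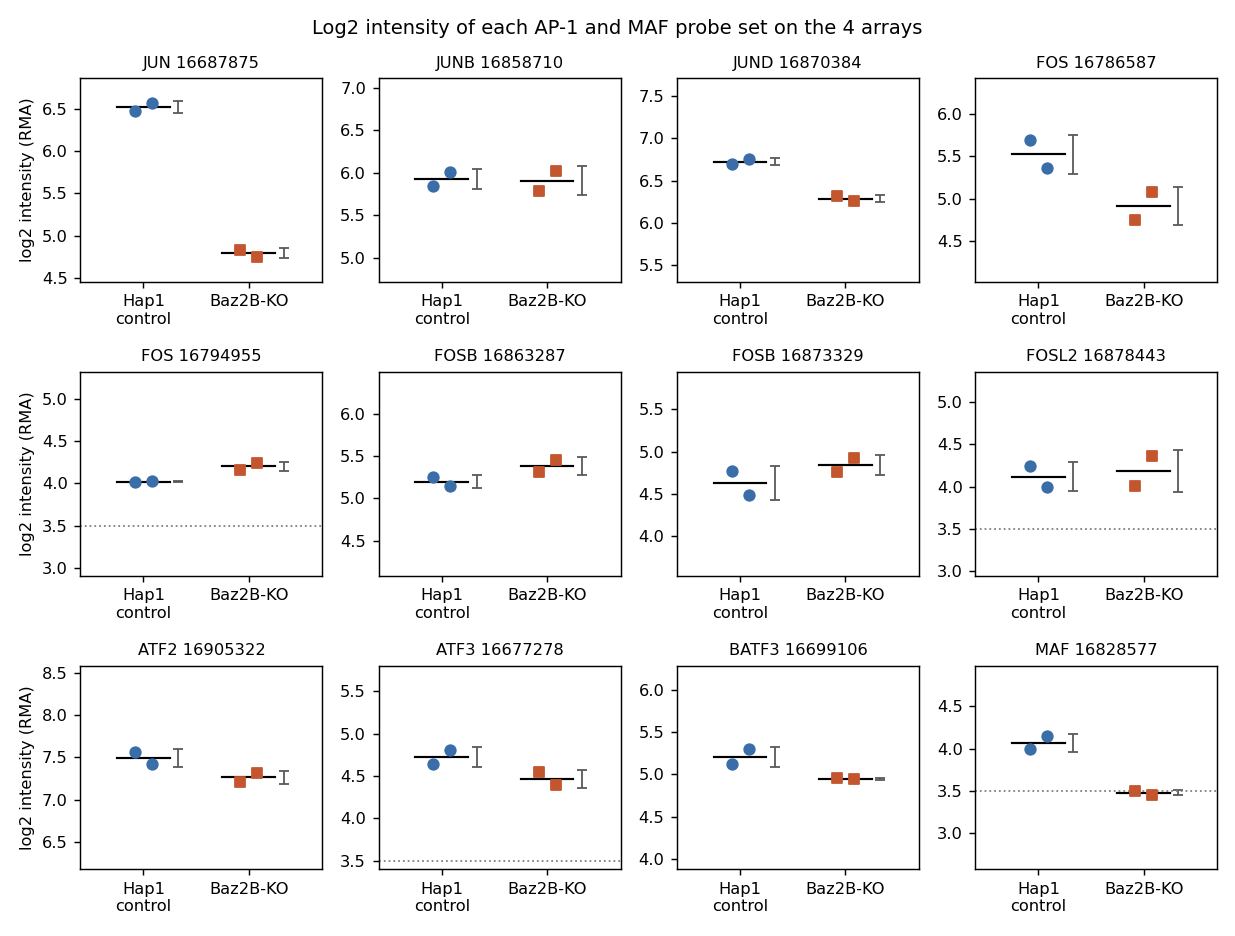
Log2 intensity (RMA) of the 12 probe sets on the 2 Hap1 control arrays (blue circles) and the 2 Baz2B-KO arrays (orange squares), with all panels spanning the same range of log2 units. Horizontal bars are means, the bars beside them ± 1 SD (n = 2), and the dotted line is the intensity limit of 3.5. The gap is wide for JUN, small for JUND and MAF, and absent for JUNB and FOSL2.

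JUN, the founding AP-1 subunit and the strongest activator of its subfamily, is a gene without introns at chr1:58780791-58784047 in GRCh38.p14. Its log2 intensity was 6.47 and 6.57 on the control arrays and 4.83 and 4.75 on the Baz2B-KO arrays. The lines were far apart, while arrays of a line differed by 0.101 and 0.0826. In the 4 pairs of arrays across the lines, Baz2B-KO minus control ran from -1.82 to -1.64. The log2 fold change was -1.73 (standard error 0.111, 95% interval -1.99 to -1.47, adjusted p = 0.00099 from limma), which was the 8th lowest p of the 11235 probe sets. Its interval lay wholly below that of every other member. The call did not hold in 3-array fits without control replicate 1 (log2 fold change -1.78, adjusted p = 0.0542 from limma) or without control replicate 2 (-1.68, adjusted p = 0.0564), which leave 1 control array. With all 27722 retained probe sets tested, the adjusted p was 0.0371 from limma.

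The paralogs of JUN gave other values. JUND, which in most cells is expressed without a stimulus, had 6.70 and 6.75 in the control and 6.32 and 6.26 in Baz2B-KO. Both Baz2B-KO arrays were below both controls, and the gap was several times the 0.0583 and 0.0582 between arrays of a line. The log2 fold change of JUND was -0.43 (standard error 0.108, 95% interval -0.69 to -0.18), and it did not pass the test (adjusted p = 0.211 from limma). JUNB, which can restrain JUN activity, had 5.84 and 6.01 in the control and 5.78 and 6.02 in Baz2B-KO. The arrays of JUNB overlapped, and the 95% interval of its log2 fold change, -0.33 to 0.29, leaves room for a change of either sign.

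FOS, the immediate early partner of JUN, is at chr14:75278828-75282230. It has 2 probe sets whose log2 fold changes had opposite signs, neither past the test. The brighter one (16786587) had 5.69 and 5.36 in the control and 4.75 and 5.07 in Baz2B-KO. Both Baz2B-KO arrays were below both controls, but arrays of a line differed by 0.328 and 0.323, and no other member had controls so far apart. The log2 fold change was -0.61 (standard error 0.16, 95% interval -0.99 to -0.24), with an adjusted p of 0.247 from limma. The dimmer one (16794955) had 4.02 on both control arrays and 4.16 and 4.24 in Baz2B-KO, with both Baz2B-KO arrays above both controls and a log2 fold change of 0.18 (95% interval -0.07 to 0.43, adjusted p = 0.691 from limma). The mean of both probe sets had a log2 fold change of -0.22 (adjusted p = 0.664 from limma).

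FOSB, at chr19:45467996-45475179, encodes a FOS protein whose short splice form is known for its persistence in stimulated neurons. Its brighter probe set (16863287) had 5.25 and 5.14 in the control and 5.31 and 5.45 in Baz2B-KO. The dimmer one (16873329) had 4.78 and 4.49 in the control and 4.76 and 4.93 in Baz2B-KO. The log2 fold changes of FOSB were 0.18 (95% interval -0.09 to 0.46) and 0.21 (95% interval -0.11 to 0.53), neither past the test, and the arrays of the dimmer probe set overlapped between the lines. The value of the dimmer one rested on single arrays, with 0.35 without control replicate 1, 0.07 without control replicate 2 and 0.12 without Baz2B-KO replicate 2, and that of the brighter one was 0.11 without Baz2B-KO replicate 2. FOSL2, which encodes FRA2, had 4.24 and 4.0 in the control and 4.01 and 4.36 in Baz2B-KO. Its arrays overlapped, with a log2 fold change of 0.06 (95% interval -0.30 to 0.42).

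The numbering of the probe sets differs within FOS and within FOSB. The 20 named probe sets nearest in number to each member whose strand is known all belonged to genes of the member's chromosome. For the brighter probe set of FOS, 19 of the 20 belonged to genes on the plus strand, which is the strand of FOS, and for the dimmer one 18 of 20 to genes on the minus strand. For FOSB, also a plus-strand gene, 19 of 20 belonged to the plus strand for the brighter probe set and 20 of 20 to the minus strand for the dimmer one. For the other members with a known strand, 19 or 20 of 20 neighbours were on the gene's own strand. The strand that a probe set reads is not given in the sources used here, and whether it bears on the opposite signs in FOS was not tested.

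**Figure D3:**
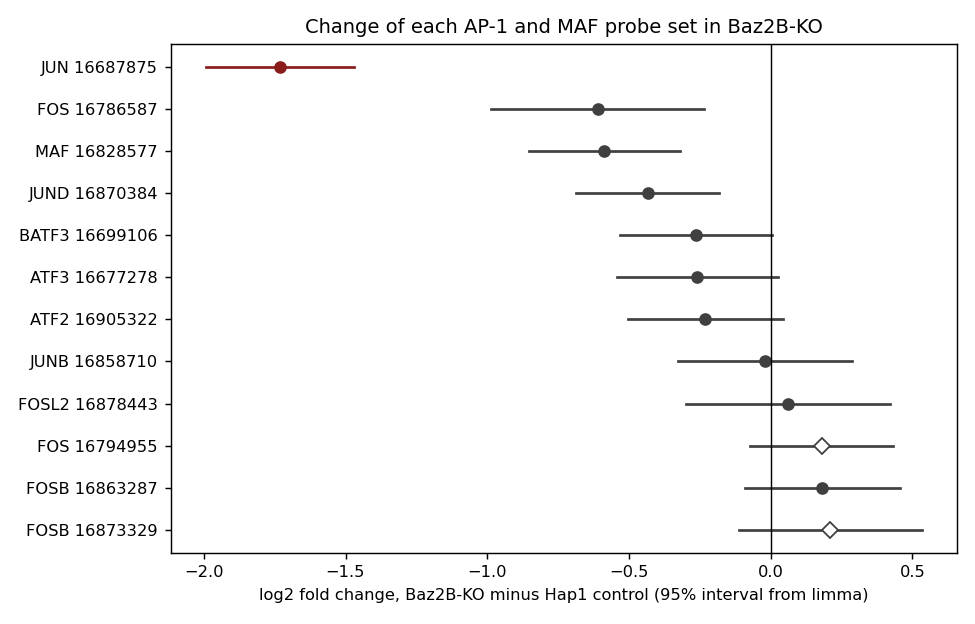
Log2 fold change of each member probe set, Baz2B-KO minus Hap1 control, on the x axis, with the 95% interval from limma as a line. Filled circles are the brighter or sole probe set of a gene, open diamonds the dimmer probe sets of FOS and FOSB, and JUN, in red, is the probe set past the test. The interval of JUN ends at -1.47, and that of FOS 16786587, the next in order, begins at -0.99.

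The ATF-type members did not pass the test. ATF2, which is activated by stress kinases and pairs with JUN on the cAMP response element, had 7.57 and 7.42 in the control and 7.21 and 7.31 in Baz2B-KO. ATF3, a stress-induced repressor, had 4.64 and 4.81 in the control and 4.54 and 4.39 in Baz2B-KO. BATF3, a partner of JUN known from dendritic cells, had 5.13 and 5.30 in the control and 4.95 and 4.94 in Baz2B-KO. For each of the 3 genes both Baz2B-KO arrays were below both controls, although for ATF2 and ATF3 the nearest arrays of the lines differed by no more than 0.103. The log2 fold changes were -0.23 for ATF2 (95% interval -0.50 to 0.04), -0.26 for ATF3 (95% interval -0.54 to 0.03) and -0.26 for BATF3 (95% interval -0.53 to 0.01), with adjusted p between 0.517 and 0.612 from limma.

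MAF is a large MAF factor, a family that binds extended AP-1-type elements and is known from T cells, lens and myeloma. It had 3.99 and 4.15 in the control and 3.51 and 3.46 in Baz2B-KO. The groups did not overlap, and the lower Baz2B-KO array lay under the intensity limit of 3.5, so that 3 of 4 arrays were above it. The log2 fold change was -0.59 (standard error 0.114, 95% interval -0.85 to -0.32), with an adjusted p of 0.106 from limma. RMA shrinks differences near the background, and the fold change of so dim a probe set can be understated. Control means of the member probe sets ranged from 4.02 for the dimmer one of FOS to 7.49 for ATF2, but probe sets differ in how well they hybridise, and no order of transcript abundance between genes was read from them.

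Of the other genes with a basic leucine zipper, the AP-1 regulators and the known AP-1 targets, none of those tested passed. Of 43 further leucine zipper factors the platform annotation named 28. All 28 were tested, and 0 were called (1 lower and 1 higher at an unadjusted p under 0.05, beside 4.47% and 5.38% of all tested probe sets). These were DDIT3, a stress factor that forms pairs with C/EBP proteins, at a log2 fold change of -0.49 (adjusted p = 0.185 from limma), and HLF, a factor of the PAR family, at 0.56 (adjusted p = 0.123). FOSL1, the remaining FOS family gene, had 6.06 and 6.09 in the control and 6.28 and 6.38 in Baz2B-KO. Its Baz2B-KO arrays lay above the controls, with a log2 fold change of 0.25 (95% interval -0.01 to 0.51, adjusted p = 0.518 from limma). ATF1, named only by the authors' results table and thus for its low p, had a log2 fold change of 0.26 (adjusted p = 0.506 from limma). The median log2 fold change of the 28 genes was -0.0032.

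The kinases and regulators that act on AP-1, among them the JNK, ERK and p38 kinases, their scaffolds and phosphatases and the ubiquitin ligases of JUN, had a median log2 fold change of 0.0042. Of 52 such genes the platform annotation named 35. Of these 33 were tested and 0 were called (1 lower and 2 higher at an unadjusted p under 0.05, beside 4.47% and 5.38% of all tested probe sets). The lowest p belonged to MEF2C, a factor that drives JUN transcription, at a log2 fold change of 0.47 (adjusted p = 0.217 from limma), and to DUSP10, a phosphatase of JNK and p38, at -0.46 (adjusted p = 0.286). FBXW7, part of a ubiquitin ligase of JUN, and RPS6KA2, a kinase downstream of ERK, are named only by the authors' results table, for their low p. Their log2 fold changes were 0.51 (adjusted p = 0.286 from limma) and -0.25 (adjusted p = 0.541).

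Of 46 known AP-1 target genes the platform annotation named 29, of which 18 were tested. Of these 0 were called (0 lower and 1 higher at an unadjusted p under 0.05) and the median log2 fold change was 0.011. The list was not split by the direction in which AP-1 acts on a gene, so this median does not measure AP-1 output. LIF, a cytokine, had a log2 fold change of 0.31 (adjusted p = 0.405 from limma), and FOSL1, a target as well as a FOS family gene, is given above. CCND1, which encodes cyclin D1, had one of -0.25 (adjusted p = 0.531 from limma). Through the authors' results table alone, and for their low p, CDKN1A, the gene of the p21 cell cycle inhibitor, was named with 0.65 (adjusted p = 0.0654 from limma) and NQO1, an oxidative stress enzyme, with 0.38 (adjusted p = 0.355). Over all tested probe sets, 4.47% were lower and 5.38% higher at an unadjusted p under 0.05.

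Trypsinisation and serum are known to raise immediate early transcripts. Other immediate early genes and genes of the response to cell dissociation, among them heat shock genes, were thus read beside FOS and JUN. Of 36 listed the platform annotation named 19, of which 18 were tested. Of these 0 were called (3 lower and 1 higher at an unadjusted p under 0.05), with a median log2 fold change of -0.025. The counts and the median include the heat shock genes HSPA1A, HSPA1B and HSPH1, at -0.06, -0.04 and -0.0019. Both Baz2B-KO arrays lay below both controls for 6 of the 18, beside 15.9% of all tested probe sets, and above them for 1, beside 21.9%. They also lay below for 5 of the 28 leucine zipper factors, 5 of the 33 regulators and 5 of the 18 targets. Above both controls they lay for 5, 6 and 7 genes of these lists, in that order. EGR1, a zinc finger factor induced with FOS, had 6.97 and 7.05 in the control and 5.54 and 6.13 in Baz2B-KO, with a log2 fold change of -1.18 (adjusted p = 0.0513 from limma). The 2 lines did not overlap for EGR1. IER2, another immediate early factor, had a log2 fold change of -0.41 (adjusted p = 0.344 from limma). DUSP1, a MAP kinase phosphatase, had one of -0.31 (adjusted p = 0.423 from limma). ARC, the 1 gene higher at an unadjusted p under 0.05, had 0.30 (adjusted p = 0.506 from limma). Of the genes named only by the authors' results table, for their low p, CCN1 had -0.58 and ZFP36L1 -0.27, while BTG2 had 0.47, NFKBIA 0.33 and ZFP36L2 0.31, with adjusted p between 0.157 and 0.501 from limma. The part of these responses in the values of JUN and FOS was not tested.

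**Figure D4:**
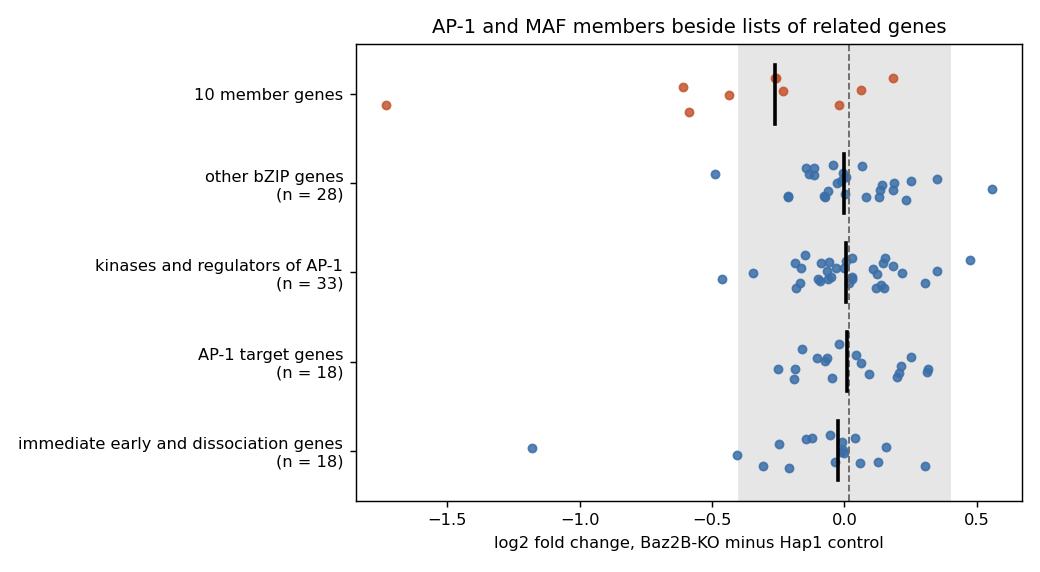
Log2 fold change, Baz2B-KO minus Hap1 control, of the 10 member genes (orange) and of the tested genes of 4 related lists (blue), 1 point per gene by its brighter probe set, with the vertical position of a point within a row carrying no meaning. Black bars are medians, the dashed line is the median of all tested probe sets (0.017) and the grey band holds the middle 95% of them (-0.399 to 0.397). JUN at -1.73 and EGR1 at -1.18 lie farthest from 0.

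The tested genes most like each of 4 members over the 4 arrays were found by the Euclidean distance between log2 values centred on their own mean. Nearest to JUN were TMEM47, QPRT, NRIP1, ANKRD1 and MIR4435-2HG, at distances of 0.129 to 0.177 and with log2 fold changes between -1.90 and -1.59. Nearest to JUND were ZNF25, GATA6, DDIT4, LRRC37B and LRRN3 (0.0204 to 0.058), and nearest to MAF were MN1, ASS1, CD68, SERF1A and FIGN (0.0329 to 0.113). Nearest to FOS 16786587 were ZYG11A, ZNF804A, MIR4804, ZNF189 and TTC41P (0.076 to 0.154). All 5 neighbours of JUN passed the test, as their likeness to it requires, and none of the others named here did.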

How the data were processed

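Per the labels and the methods, the authors imported the arrays with oligo and applied RMA (their versions are not given in the sources used here), which corrects background, equalises the distributions of the arrays and summarises each probe set. The deposited table gives the resulting log2 intensity of 53617 probe sets on 4 arrays, unfiltered. From the authors' results table only probe set numbers and symbols were taken. Its fold changes and p-values, the authors' own comparison, were not used. Samples were grouped by title. The methods' limit, a value over 3.5 on 2 or more arrays, kept 27722 probe sets. Of these, 11235 carry a platform symbol (10473 genes) and entered lmFit and eBayes in limma 3.58.1 (R 4.3.3), without covariates. Probe sets known through the results table alone took their prior from this fit, and each was adjusted as if it were the only addition. The tested set follows an earlier treatment of these data and was settled with its counts known. Arrays have no read depth, precision is limited by their number, and with 2 arrays against 2 an exact two-sided permutation p cannot go below 0.333.

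The members, the 4 gene lists and the tests were chosen with earlier results of these data known. All members were named. Of each list, the genes past the test or else those with the 2 lowest p-values were named, with the genes found only in the results table. CCND1, DUSP1 and ARC were added after their values were seen. The fit was tested on simulated data. The alternatives tried varied the intensity filter, the set tested, the eBayes prior, the scaling, the arrays included, a replicate block and the averaging of probe sets per gene. Sequences and positions are from RefSeq (GRCh38.p14), which was not matched for ATF2 and BATF3. Figures were drawn with matplotlib 3.10.9.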

Additional observations from a re-analysis of the deposited data

How the results depend on the processing

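JUN remained past the test in 11 of 13 other settings, with a log2 fold change between -1.78 and -1.68, and the count of members past the test was 1 in each of these 11 and between 0 and 1 when an array was left out. It was 0 without either control array, where the lowest adjusted p over all probe sets was 0.0542 and 0.0564 from limma and 935 and 1419 probe sets had an unadjusted p under 0.05. No other member passed in any setting. The count over all tested probe sets, 75, was 41 without an intensity filter and 26 with all retained probe sets, and between 0 and 42 when an array was left out. With the replicate number as a block it was 38, and the block changed no member's call (JUN, adjusted p = 0.0073 from limma). The labels give the 2 lines the same replicate numbers, but nothing says that a number marks a shared batch, and the deviations of the 2 lines correlated at 0.158 over the tested probe sets. EGR1 passed, as 1 immediate early gene, with the stricter filter (above 4.5), the intensity trend, the robust prior, median centring and averaged probe sets, and the count was 0 to 1 when an array was left out. The other 3 lists had 0 calls throughout. The sign of FOSL2 turned without control replicate 2 (-0.06) and without Baz2B-KO replicate 2 (-0.11), and that of JUNB without control replicate 2 (0.06) and without Baz2B-KO replicate 1 (0.10). Without single arrays FOSL2 ran from -0.11 to 0.24 and JUNB from -0.14 to 0.10. MAF and FOSL2 were not tested under the stricter filter, nor was the dimmer probe set of FOS. FOS went from a log2 fold change of -0.61 to -0.22 with its probe sets averaged. The cause of these shifts was not tested beyond their construction, with fewer arrays or more probe sets in the fit.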
